A study of Mus musculus with 2 samples.

Results

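Olfactory receptor genes were examined for DNA methylation in osteoblasts that lacked the TET enzymes. The members were all autosomal genes of the GENCODE M21 annotation (mouse genome GRCm38) whose name starts with Olfr, taken as the gene plus 2 kb on each side, with at least 30 calls in each library. A call is 1 read of 1 CG cytosine. Of 1399 autosomal Olfr genes 1398 had this depth, out of 51149 autosomal genes that passed the same minimum. Of the members, 1128 were annotated as protein-coding and 270 as pseudogenes.

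Whole-genome bisulfite sequencing (WGBS) was carried out on primary osteoblasts from 3-day-old C57BL/6 mice, cultured for 3 days, with 1 library from wild type (WT) and 1 from mice that carry Prx1-Cre with the floxed alleles Tet1fl/fl, Tet2fl/fl and Tet3fl/fl (TCKO). TET enzymes oxidise 5mC to 5hmC, a step towards unmethylated cytosine. Prx1-Cre acts in mesenchymal progenitors of the limbs and of parts of the skull, so cells of other origin in a culture keep their Tet genes. Each p-value and interval compares these 2 libraries and covers counting error only, because the genotypes have no replicate check and calls on the same read are not independent.

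Olfactory receptors are membrane receptors that couple to a G protein and bind odorants. They form the largest gene family of the mouse, and most lie in long arrays on many chromosomes, in sequence poor in CG. A mature olfactory sensory neuron transcribes a single receptor allele while the rest of the family is packed in heterochromatin. Outside the nose nearly all of these genes are silent, although a few receptors have been described in other tissues. Methylation at CG sites accompanies stable silencing at many genes, but the promoters of the family hold few CG.

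The libraries held 261127589 calls in WT and 223645082 in TCKO. Within each of the 3 Tet genes a stretch was nearly empty in TCKO (755 against 70 calls in Tet1, 122 against 13 in Tet2 and 133 against 9 in Tet3), and these stretches were chosen after the calls were seen. Of the osteoblast markers, the 2 kb around the start was methylated in WT at 0.613% for Col1a1, 8.54% for Col1a2 and 13.8% for Runx2. Sp7 had 20.9%, Alpl 32.1% and Bglap, a gene of mature osteoblasts, 71.9%. The starts of the blood cell genes Ptprc, Spi1 and Csf1r and of the endothelial genes Pecam1 and Cdh5 had between 61.9% and 78.5% in WT, and the muscle genes Myod1 and Myog had 32.1% and 65.2%. Of the olfactory neuron genes, the start of Omp, a protein of mature olfactory neurons, had 59.4% in WT and 81.0% in TCKO, that of Gnal 42.9% and 37.6%, and that of Adcy3 35.9% and 28.5%.

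The sequences below show what such a window contains. Each is a 200 bp bin on the plus strand of GRCm38, with the CG dinucleotides in capitals. The first 3 are the bins of the family with the largest gain of methylation and the last 3 those with the largest loss. Bins were placed by their midpoint. The midpoint of the Olfr957 bin lay 91 bp before the gene (chr9:39515801-39516000). The bin of Olfr543 lay in an intron (chr7:102481001-102481200) and that of Olfr1218 in an intron (chr2:89059601-89059800). The bin of Olfr948 lay in a coding exon (chr9:39319201-39319400). The midpoint of the Olfr918 bin lay 99 bp before the gene (chr9:38674601-38674800), and the bin of Olfr1026 lay in an intron (chr2:85922801-85923000). All 6 hold the minimum of 4 CG cytosines, 2 on each strand.
Olfr957 bin: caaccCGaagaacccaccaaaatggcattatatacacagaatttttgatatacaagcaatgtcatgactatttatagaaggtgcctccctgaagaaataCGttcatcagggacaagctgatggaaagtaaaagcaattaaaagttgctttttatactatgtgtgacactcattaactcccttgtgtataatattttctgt
Olfr543 bin: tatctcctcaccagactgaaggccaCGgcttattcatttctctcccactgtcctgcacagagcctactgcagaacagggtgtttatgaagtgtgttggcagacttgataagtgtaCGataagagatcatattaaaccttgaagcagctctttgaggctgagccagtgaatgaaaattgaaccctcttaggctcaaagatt
Olfr1218 bin: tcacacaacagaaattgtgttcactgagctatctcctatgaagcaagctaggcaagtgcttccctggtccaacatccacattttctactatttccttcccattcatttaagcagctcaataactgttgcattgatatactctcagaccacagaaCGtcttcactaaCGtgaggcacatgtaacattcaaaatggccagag
Olfr948 bin: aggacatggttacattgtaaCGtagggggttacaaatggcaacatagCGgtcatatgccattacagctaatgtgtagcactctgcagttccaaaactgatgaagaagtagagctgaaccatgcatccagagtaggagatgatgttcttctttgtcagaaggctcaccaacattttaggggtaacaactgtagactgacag
Olfr918 bin: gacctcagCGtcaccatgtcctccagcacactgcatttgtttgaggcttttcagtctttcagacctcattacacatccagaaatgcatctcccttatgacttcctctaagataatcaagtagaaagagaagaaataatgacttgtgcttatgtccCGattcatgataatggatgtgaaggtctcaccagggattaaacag
Olfr1026 bin: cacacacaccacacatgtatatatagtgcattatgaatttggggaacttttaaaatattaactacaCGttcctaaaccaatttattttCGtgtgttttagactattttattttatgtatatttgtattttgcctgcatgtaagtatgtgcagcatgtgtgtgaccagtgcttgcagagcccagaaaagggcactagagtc

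The olfactory receptor genes did not gain methylation in TCKO, while other genes did. Pooled over the member windows, the WT level was 63.6% of 1120661 calls (Wilson limits at 95%: 63.5% and 63.7%). The TCKO level was 63.3% of 968501 calls (63.2% and 63.4%). The difference was -0.299 percentage points (95% Newcombe interval -0.429 to -0.168, 2-sided Fisher exact test p = 7.91e-06). Over all other autosomal genes the level went from 71.0% to 77.8%, a difference of 6.85 points, and the family therefore differed from them by -7.15 points (95% interval -7.28 to -7.02). Against the other protein-coding genes alone, which differed by 7.005 points between the libraries, the gap was -7.30 points.

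The small fall in the pooled level did not hold under every way of counting. Without the members on chromosome 7 the difference was -0.067 points (p = 0.371, Fisher exact test), and without CG cytosines of more than 30 calls in either library it was -0.0875 points (p = 0.244). Such deep cytosines made up 5.14% of the CG cytosines of the family but 20.5% of its calls in WT, against 2.21% and 13.0% over the autosomes, and on them alone the difference was -0.892 points. Whether reads of other copies had been placed on these cytosines was not tested. The gap to other genes stayed between -7.30 and -7.05 points under every change of sites, window, strand, minimum depth or comparison gene type.

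Single members behaved like the pool. The median difference of a member was -0.999 points (quartiles -3.29 and 1.79), against 5.71 points (2.18 and 8.90) for other genes. A higher level in TCKO was found in 555 of 1398 members (39.7%) and in 85.2% of other genes. The WT level of a member had a median of 63.2% (quartiles 58.4% and 67.4%) and the TCKO level one of 61.9% (56.4% and 67.8%). Between 60% and 70% lay 760 members in WT and 571 in TCKO, and both outer groups grew: members under 50% numbered 47 in WT and 99 in TCKO, and those at 70% or above 180 and 251.

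**Figure D1:**
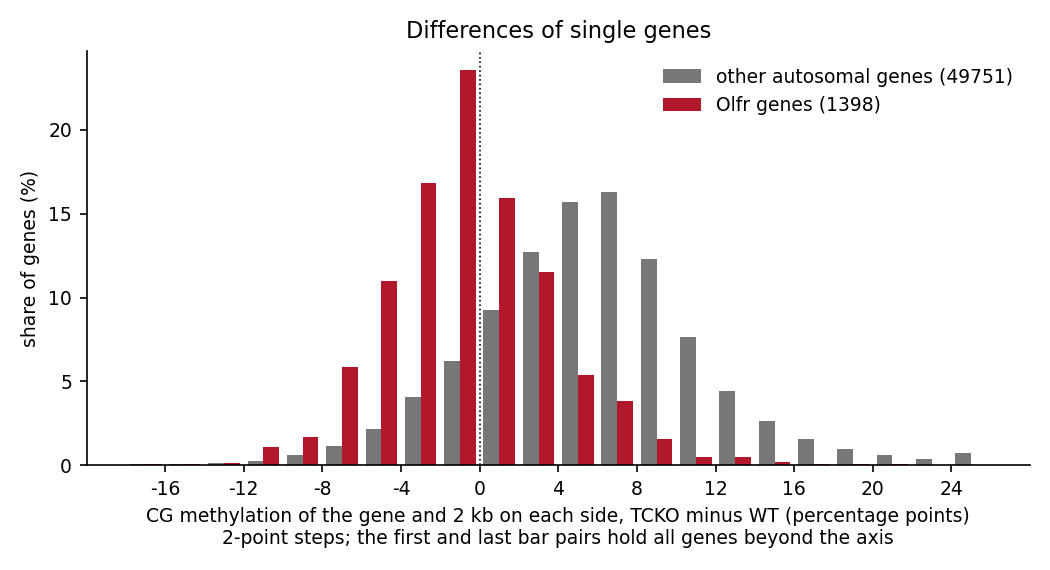
Share of genes (vertical axis, %) by the difference in CG methylation of the gene window between TCKO and WT (horizontal axis, percentage points, 2-point steps), for 1398 Olfr genes (red) and 49751 other autosomal genes (grey). The Olfr genes centre just below 0, with a median of -0.999, and the other genes near 6, with a median of 5.71.

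A gene was called when the Fisher exact test gave an adjusted p below 0.05 (Benjamini-Hochberg over all 51149 genes) and the levels differed by at least 10 points. By this rule 19 members (1.36%) were called higher in TCKO, where 18.3% of all tested autosomal genes were. Called lower were 17 members (1.22%), where 0.469% of all tested genes were. A further 205 of the 1398 members passed the adjusted p with a difference of less than 10 points, where 20883 of the 49751 other autosomal genes did. The calls downward depended on the window, since none of them passed with 5 kb on each side in place of 2 kb, while 16 members were then called higher. The spread of the member differences (SD 4.27 points) was wider than that expected from counting alone (2.83 points), and 22.8% of its variance lay between genomic clusters. The windows of 428 members overlapped that of another member, so neighbours are not independent.

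The members called higher were spread over 14 clusters on 11 chromosomes and were the better supplied with CG, with a median of 14.8 CG cytosines per kb against 8.11 for all members. Olfr94 (chr17:37196425-37200994, minus strand) led them, from 52.4% of 1426 calls in WT to 72.6% of 1014 calls in TCKO, a gain of 20.2 points (95% interval 16.4 to 23.9, adjusted Fisher exact p = 3.60e-23). Its window reaches into Ubd, which encodes a ubiquitin-like protein, and held 37.6 CG cytosines per kb, and it was the only one of the 19 with another protein-coding gene in the window. The gain was similar on the plus strand (19.7 points) and on the minus strand (21.0 points).

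Olfr876 and Olfr958, both in the array on chromosome 9 that starts with Olfr160, followed. Olfr876 (chr9:37803031-37808144) rose from 62.9% to 81.3%, by 18.4 points (12.4 to 24.2). Olfr958 (chr9:39547958-39554054) rose from 65.1% to 82.5%, by 17.3 points (13.3 to 21.3). Olfr455 on chromosome 6 (chr6:42535664-42547587) rose from 69.1% to 84.8%, by 15.7 points (12.2 to 19.2). Olfr433 on chromosome 1 (chr1:174040705-174044411) rose from 54.0% to 68.5%, by 14.6 points (7.93 to 21.0). In 18 of the 19 both strands had a higher level in TCKO, the exception being Olfr159 on chromosome 4, with -3.30 points on the plus strand and 28.6 points on the minus strand.

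The members called lower came from 10 clusters on 5 chromosomes, and 9 of the 17 were pseudogenes. Their median CG density was 6.49 CG cytosines per kb and their median depth in WT 419 calls, against 980 calls for those called higher. Among members with at least 100 calls in each library, Olfr475-ps1 on chromosome 2 fell furthest, from 58.4% of 373 calls to 45.7% of 335 calls, a difference of -12.8 points (-20.0 to -5.41, adjusted Fisher exact p = 0.00159). Olfr507 on chromosome 7 went from 67.8% of 183 calls to 55.5% of 155 calls, by -12.3 points with the wide interval of -22.4 to -1.89 and an adjusted exact p of 0.0414. Olfr1005-ps1, Olfr1102 and Olfr1088-ps1, all in the large chromosome 2 array, differed by -11.8, -11.7 and -11.5 points. Olfr1005-ps1 and Olfr1006, also called lower, lie so close that their windows overlap. The lowest value of all, -16.4 points in Olfr852-ps1, rested on 97 and 95 calls and had opposite signs on the strands.

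Some receptors are known from work outside the nose or from studies of receptor choice, and none of these 10 was called in either direction. Of all members 1.36% were called higher and 1.22% lower, so none in a list this short is near the family's share. Olfr78, a receptor for short-chain fatty acids described in the carotid body and kidney, had 61.4% of 2714 calls in WT and 63.3% of 2235 in TCKO, a difference of 1.89 points (-0.826 to 4.59). Olfr558, its neighbour on chromosome 7, had 65.0% and 64.7%. Olfr544, a receptor for azelaic acid described in liver and fat, went from 75.02% to 83.4%, by 8.40 points (4.91 to 11.8, adjusted Fisher exact p = 1.03e-05), under the minimum size of 10. Olfr15 went from 69.8% to 75.03%, by 5.24 points (2.50 to 7.94, adjusted Fisher exact p = 0.000471).

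Olfr17, known as P2 from tracing of olfactory axons, went the other way, from 52.3% of 723 calls to 42.3% of 579 calls, by -9.97 points (-15.3 to -4.51, adjusted Fisher exact p = 0.000835), just short of the minimum size. The remaining receptors had intervals that include 0. Olfr16, described in sperm, differed by 3.20 points, Olfr1393, described in the kidney, by 2.76 points, and Olfr1507, the MOR28 gene beside the H enhancer, by 2.44 points. Olfr160, known as M72, differed by -1.29 points and Olfr73, the eugenol receptor, by -3.25 points.

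The members with the lowest and highest WT levels were not called in either direction. With 1.36% of all members called higher and 1.22% lower, none among 8 is near the family's share. The lowest WT levels among members with at least 100 calls were those of Olfr845 (35.7% in WT, 27.9% in TCKO), Olfr1542-ps1 (35.7% and 41.1%), Olfr1306 (37.5% and 31.8%), Olfr383-ps1 (39.04% and 40.6%) and Olfr248 (39.95% and 47.4%). The highest were the pseudogenes Olfr1397-ps1 (88.1% and 88.7%), Olfr856-ps1 (83.1% and 82.3%) and Olfr471 (82.8% and 77.0%). None of these 8 differed between the libraries at an adjusted p below 0.05. Their depth varied, from 210 calls in WT and 190 in TCKO for Olfr845 to 813 and 635 for Olfr1397-ps1. The medians over all members were 766 and 661. At the depth limit, Olfr1304-ps1, with 6 and 13 calls, was the single gene left out, and the shallowest members kept were Olfr428-ps1 (86 and 56 calls), Olfr1332-ps1 (237 and 69) and Olfr760-ps1 (74 and 78).

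Protein-coding and pseudogene members were close to each other. The pooled difference was -0.222 points (-0.361 to -0.0841) for the 1128 protein-coding members and -0.886 points (-1.27 to -0.502) for the 270 pseudogenes, and these differed by 0.664 points (0.255 to 1.07). The cluster on chromosome 7 that holds Olfr78 and Olfr558 (chr7:102476579-105369355, 156 members) is known for class I receptors, the class related to those of fish. It went from 65.2% to 64.6%, by -0.604 points, and all other clusters together from 63.4% to 63.1%, by -0.253 points. The difference between them was -0.351 points with an interval of -0.752 to 0.0498. It was -0.622 points (-1.18 to -0.0645) on the plus strand and -0.0579 points (-0.634 to 0.519) on the minus strand, so whether the interval included 0 depended on the strand. Class was taken from position and not from protein sequence. In 19 members another protein-coding gene lay in the window. These rose by 1.83 points (1.18 to 2.48), and the 1379 without such a neighbour had a difference of -0.392 points. The median CG density was 12.6 CG cytosines per kb with a neighbour and 8.09 without, and its part in this was not tested.

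The other chemoreceptor families allow a comparison with genes of like function. Vomeronasal receptors, which detect pheromones and also lie in long arrays poor in CG, fell from 59.7% to 58.0% over 553 genes, by -1.71 points (-1.88 to -1.54). The olfactory receptors lay above them by 1.41 points (1.19 to 1.63). Trace amine-associated receptors, the second family of olfactory neurons, rose from 70.9% to 76.8% over 16 genes, by 5.95 points (4.75 to 7.15), and the olfactory receptors differed from them by -6.25 points (-7.46 to -5.04). The median CG density was 8.16 CG cytosines per kb in the vomeronasal genes and 14.9 in the trace amine-associated ones, against 8.11 in the Olfr genes.

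The 21 genes listed for olfactory signalling and receptor choice had differences more like those of other genes than of the receptors. Their windows held between 10.3 and 68.6 CG cytosines per kb, against a median of 8.11 in the Olfr genes. They were not set beside genes of like density. All 21 had a higher level in TCKO, 6 were called higher (18.3% of all tested genes were) and none lower, and their median difference was 7.69 points beside 5.57 over all tested genes. Omp rose from 64.3% to 80.8%, Atf5, a factor of the receptor feedback signal, from 28.5% to 43.1%, and Kdm1a, a histone demethylase that acts in receptor choice, from 72.4% to 83.8%. Stoml3, Reep1 and Ldb1, which encodes the partner of LHX2 at receptor enhancers, were the other called genes. Adcy3, the adenylyl cyclase of olfactory cilia, differed by 5.25 points and Gnal, its G protein subunit, by 2.47 points. In the 2 kb around the start alone, as given above, Adcy3 and Gnal were lower in TCKO and Omp was higher. For Lhx2, Emx2, Rtp1 and Gng13 the interval included 0.

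The density of CG in the window was related to the difference, so members were set beside other genes of like density. In the 588 members with 5 to 8 CG cytosines per kb the pooled difference was -1.54 points, beside 1.48 points in the 2616 other genes of that density. In the 412 members with 8 to 11 per kb it was -0.260 points, beside 4.63 points. In the 83 members with 15 to 20 per kb it was 2.80 points, beside 7.22 points. The family lay below other genes in each of the 7 density classes, with gaps between -5.85 and -1.98 points, and weighted by the family's own calls the gap was -4.25 points in place of -7.15. Up to 30 CG cytosines per kb the pooled difference of other genes went up with density from 0.956 to 7.51 points, and that of the members from -2.13 to 3.37 points.

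**Figure D2:**
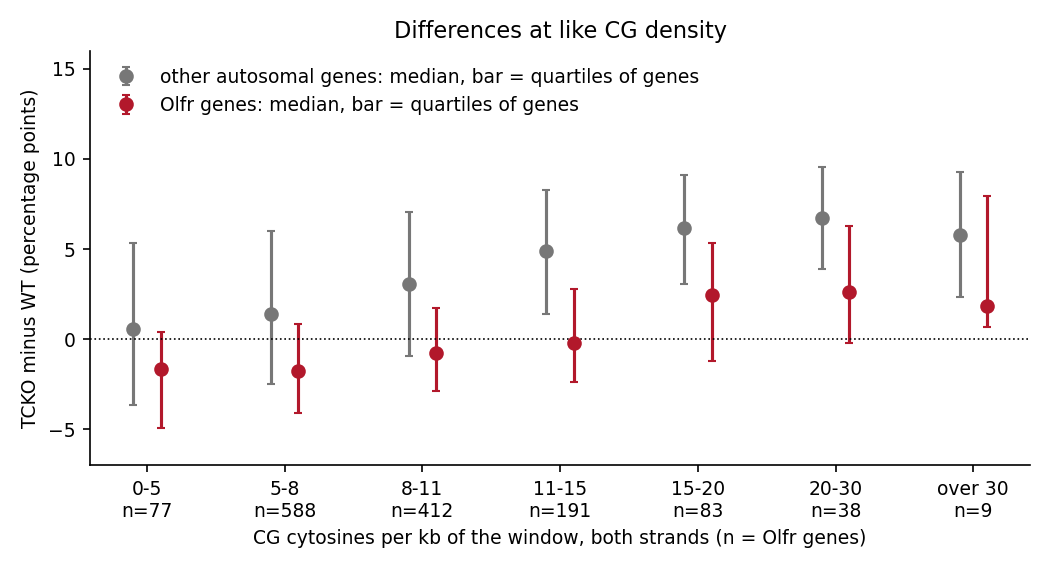
Difference in CG methylation between TCKO and WT (vertical axis, percentage points) by the number of CG cytosines per kb of the window (horizontal axis), for Olfr genes (red) and other autosomal genes (grey); points are medians over genes and bars their quartiles. The Olfr median is the lower in each of the 7 classes, and in both sets the median is higher at 20 to 30 per kb (2.61 and 6.69) than at 5 to 8 per kb (-1.74 and 1.42) and lower again in the densest class (1.85 and 5.81).

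The gain outside the arrays stopped near their edges. For the 24 clusters of at least 10 members, the 300 kb on each outer side went from 66.6% to 71.1%, by 4.53 points (4.42 to 4.64). The Olfr windows of the same clusters differed by -0.560 points (-0.699 to -0.421), which is -5.09 points (-5.27 to -4.91) from their flanks. The sequence between the windows differed by -0.283 points (-0.397 to -0.169), so it was like the genes and unlike the flanks. The 415 other genes inside these spans rose by 2.48 points (2.23 to 2.73) when pooled, but their median difference was 0.651 points. Of these 415 genes, 18 were called higher and 10 lower, where 18.3% and 0.469% of all tested genes were. The 113 of them that code for proteins rose by 3.88 points (3.57 to 4.19), with a median of 3.58 points. From the outside in, the 100 kb steps differed by 4.53, 4.82 and 4.23 points outside the edge and by 0.836, 0.0926 and -0.665 points inside it. The steps inside rested on 48, 42 and 30 edges, because shorter clusters do not reach so far in. The part of this change of clusters in the inner values was not tested.

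**Figure D3:**
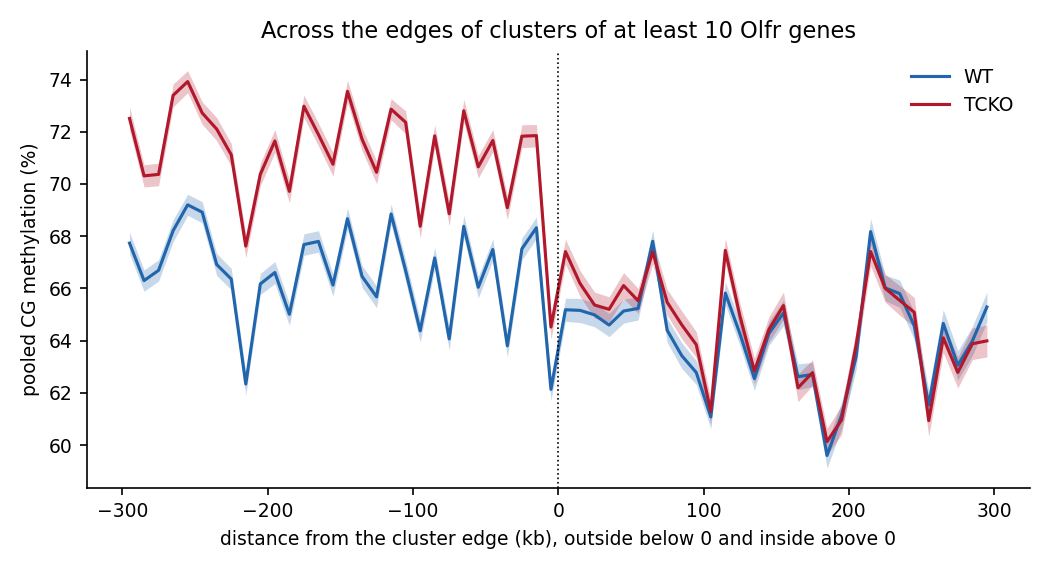
Pooled CG methylation (vertical axis, %) of WT (blue) and TCKO (red) in 10 kb steps by distance from the edge of clusters of at least 10 Olfr genes (horizontal axis, kb, outside below 0 and inside above 0), all CG cytosines included; shading is the 95% Wilson interval. The lines run 3.53 to 5.68 points apart outside up to 10 kb from the edge and 2.39 points apart over the last 10 kb. Inside they are 2.23 points apart in the first 10 kb and differ by -1.30 to 1.64 points from there on. All 48 edges count up to 130 kb inside and 30 in the innermost step, since shorter clusters do not reach so far.

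Members less than 500 kb apart were joined to clusters, numbered along each chromosome (2.2 is the second on chromosome 2). There were 66 clusters, of which 22 held a single gene, 11 held 2 to 4 and 33 held at least 5. At an adjusted p below 0.05 over these 66 (Fisher exact), 20 clusters (30.3%) were higher and 17 (25.8%) lower in TCKO, and 29 were neither. Of the members 719 lay in clusters called lower and 166 in clusters called higher. Unlike the call of a gene, that of a cluster had no minimum difference. Cluster 7.5, with 156 members, was called lower at -0.604 points. By size, single genes rose by 2.47 points (1.48 to 3.45), clusters of 2 to 4 members by 1.06 points (0.348 to 1.78) and clusters of 5 to 9 members by 2.28 points (1.75 to 2.80), whereas clusters of 10 to 49 members differed by -0.631 points (-0.861 to -0.400) and the 7 clusters of at least 50 by -0.534 points (-0.708 to -0.360). None of these 7 was called higher and 5 were called lower. The size classes also differed in CG density. From the smallest to the largest class the median member had 9.95, 11.3, 13.2, 8.39 and 7.74 CG cytosines per kb. The part of density in the values by size was not tested.

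The largest gains among clusters of at least 5 members were found on chromosomes 4, 1, 11 and 15. Cluster 4.1 (chr4:43694784-43857595, 8 members) rose from 67.6% to 76.2%, by 8.52 points (6.98 to 10.04), and includes Olfr70, Olfr71 and Olfr159, all called higher. Cluster 1.1 (8 members) rose by 5.68 points (3.98 to 7.38), with Olfr12 and Olfr1410 called higher. Cluster 4.2 (6 members) rose by 4.94 points, cluster 11.2 (8 members) by 4.31 points and cluster 15.1 (10 members) by 3.797 points. These 5 clusters had between 13.3 and 24.4 CG cytosines per kb in their windows.

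The 5 largest losses were found on chromosomes 7, 9 and 14. Cluster 7.6 (chr7:106675005-107150581, 28 members), which holds Olfr17, fell from 59.8% to 55.1%, by -4.63 points (-5.63 to -3.63), and its flanks also fell, by -1.86 points. Cluster 9.2 (49 members) fell from 56.9% to 53.5%, by -3.40 points (-4.18 to -2.63), cluster 14.2 (29 members) from 59.2% to 55.9%, by -3.24 points, cluster 7.3 (18 members) by -2.45 points and cluster 7.1 (9 members) by -2.40 points. The first 4 had between 7.51 and 8.35 CG cytosines per kb in their windows and cluster 7.1 had 13.3, as many as cluster 4.2, which gained. Cluster 2.2 (chr2:85330779-90403897) was the largest, with 287 members, and was level, at 65.9% in WT and 66.0% in TCKO, a difference of 0.129 points (-0.166 to 0.423). Its flanks rose by 6.95 points.

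In 32 of the 33 clusters of at least 5 members the Olfr windows had a smaller difference than their own flanks, which rose in 31 of the 33. The exception was cluster 4.1. Across these 33 clusters the difference went up with CG density (Pearson r = 0.775, Spearman rho = 0.777), with the WT level (0.656 and 0.703) and with the difference of the flanks (0.561 and 0.504), given as descriptions, since the clusters share both libraries. The differences on the plus and the minus strand come from separate reads of the 2 libraries. They correlated with r = 0.911 over the clusters but with r = 0.283 over 1397 single members, so the strands matched more closely for clusters than for single genes.

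**Figure D4:**
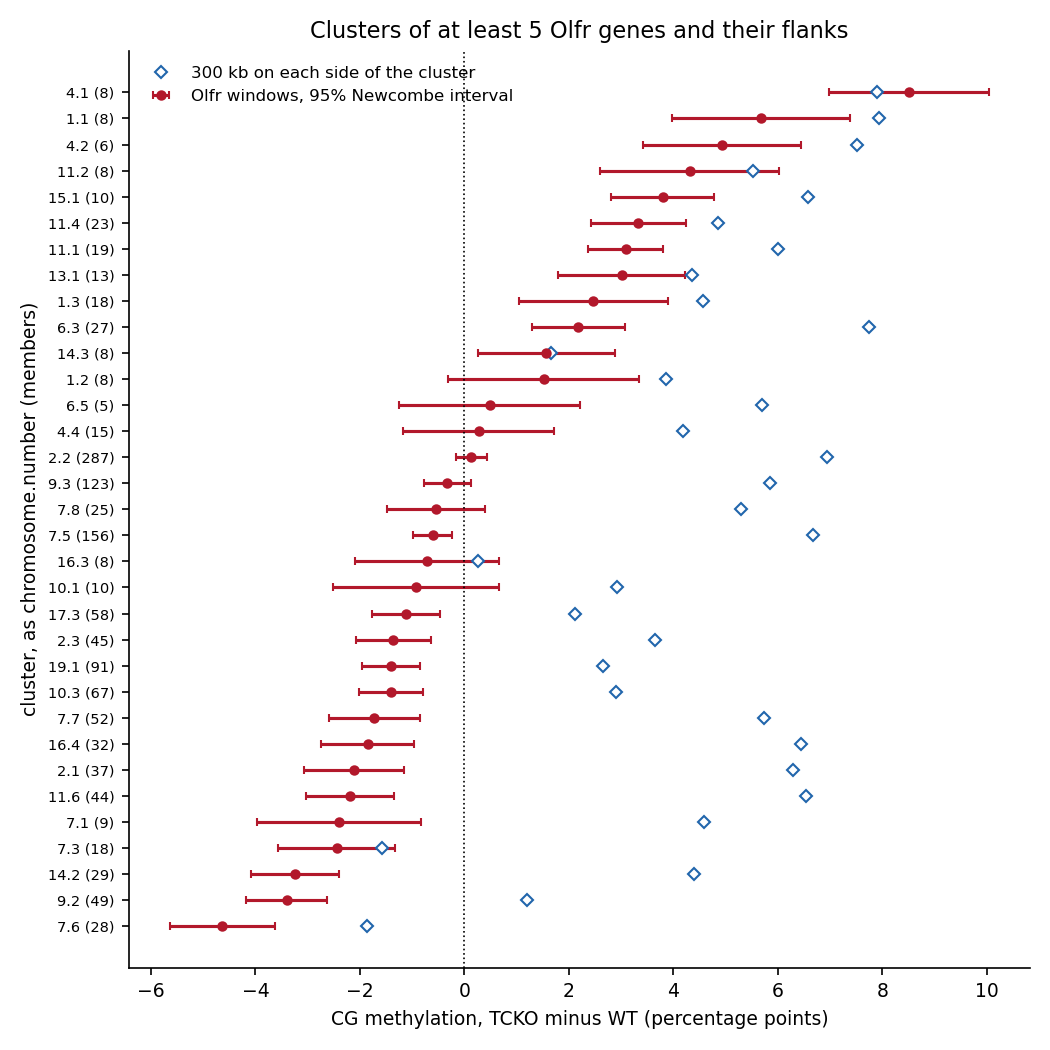
Difference in CG methylation between TCKO and WT (horizontal axis, percentage points) for the 33 clusters of at least 5 Olfr genes (vertical axis, members in parentheses); red points are the Olfr windows with 95% Newcombe intervals and blue diamonds the 300 kb on each side. The windows run from -4.63 to 8.52, and in 32 of 33 clusters the diamond lies to the right of the point.

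Within the windows the parts differed little. Coding exons, where the open reading frame holds 17.4 CG cytosines per kb, had the highest level and fell from 68.9% to 67.9%, by -1.02 points (-1.38 to -0.655). The 2 kb downstream fell by -0.701 points (-1.004 to -0.398), exons outside the coding sequence differed by -0.146 points (-0.432 to 0.139) and the 2 kb upstream by -0.159 points (-0.464 to 0.145). Introns rose by 0.280 points (0.0414 to 0.519). Repeat-masked sequence in the windows fell by -1.32 points (-1.59 to -1.05), while over all autosomes it rose by 2.34 points. Sequence outside repeats had 63.3% in both libraries, with an interval of -0.150 to 0.149 points, while over the autosomes it rose by 7.48 points.

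Around the annotated start, the protein-coding members dipped only slightly. In steps of 250 bp from 2 kb before to 2 kb after the start, their WT level stayed between 59.2% and 65.1%, with the highest level in the step farthest upstream and the lowest levels in the steps on either side of the start (59.6% and 59.2%). The first 250 bp after the start had 59.2% in WT and 60.9% in TCKO, and with 1.77 points this was the step that rose most. In the other protein-coding genes the same step had 17.6% and 19.5% and held 129 CG cytosines per kb, against 8.98 in the members.

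**Figure D5:**
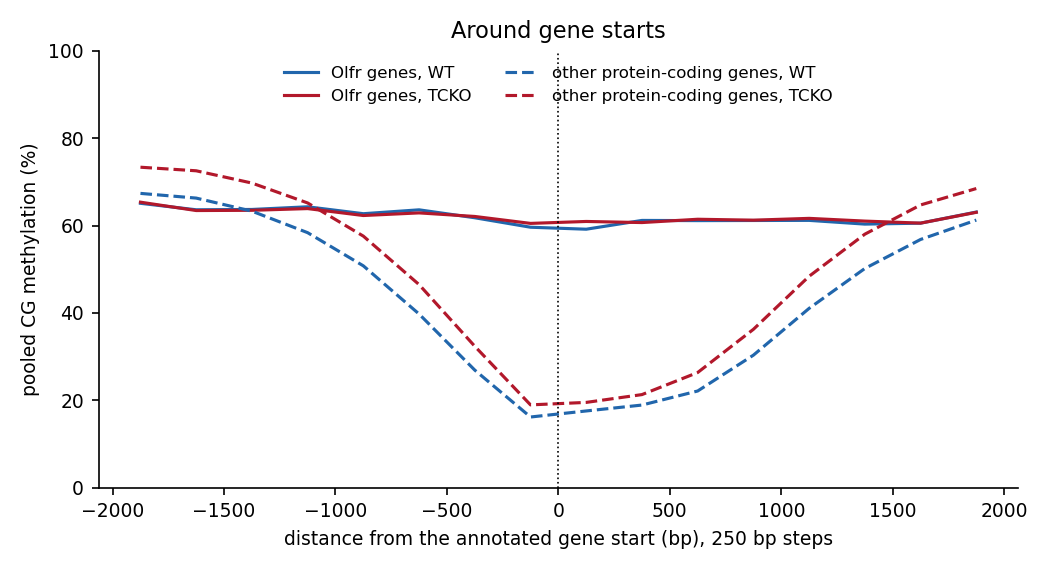
Pooled CG methylation (vertical axis, %) in 250 bp steps around the annotated gene start (horizontal axis, bp) of protein-coding Olfr genes (solid lines) and other protein-coding genes (dashed lines) in WT (blue) and TCKO (red). The Olfr lines stay between 59.2% and 65.4% and at most 1.77 points apart, with a shallow low at the start, whereas the other genes dip below 20% there.

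At single cytosines intermediate levels were more frequent in the family than over all autosomes. Of its 124395 CG cytosines, 31015 had at least 10 calls in each library, and of the 40767246 over all autosomes 5567329 did. Only these sites were counted, and neither other gene families nor sequence of like CG density was set beside them. Between 20% and 80% methylated were 72.4% of these in WT and 70.2% in TCKO, whereas over all autosomes this share went from 52.5% to 41.8%. Above 80% lay 23.9% of the family's sites in WT and 25.1% in TCKO, against 43.4% and 55.8% over the autosomes. Under 20% lay 3.78% and 4.74% in the family, and 4.10% and 2.41% over the autosomes. With 10 calls a single level is coarse, so these are shares of sites and not levels of named ones.

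Bins with a large gain were less frequent in the family than among all testable bins. A hyper-CG-DMR bin is a 200 bp bin with at least 4 CG cytosines, a mean of at least 4 calls on each in both libraries, an adjusted p below 0.05 and a level higher by more than 40 points in TCKO, and a hypo-CG-DMR bin is the reverse. Of 9692 testable bins in the windows 48 were hyper-CG-DMR bins (0.495%), where 2.86% of all testable bins were, and 5 were hypo-CG-DMR bins (0.0516%), where 0.035% of all were. With a threshold of 20 points the family had 119 (1.23%, beside 6.12% of all bins) and 32 (0.330%, beside 0.143%). With a mean of at least 10 calls it had 11 (0.301%, beside 1.91%) and none. The median testable bin of the family did not change (quartiles -6.97 and 7.27 points), and that of all bins rose by 4.71 points.

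The 48 hyper-CG-DMR bins lay in the windows of 40 genes in 22 clusters, 16 in introns, 11 in exons outside the coding sequence, 10 upstream, 10 downstream and 1 in a coding exon. The bin centred before Olfr957, shown above, went from 0% of 28 calls in WT (which allows up to 12.1% by the Wilson interval) to 80% of 20 calls in TCKO. The bin in Olfr543 went from 11.1% of 27 calls to 86.4% of 22 calls, and that in Olfr1218 from 0% of 39 calls to 73.1% of 52 calls. Both genes were also called higher over their whole windows, Olfr543 by 13.7 points and Olfr1218 by 14.5 points. In Olfr958 an 8-CG bin in an exon outside the coding sequence (chr9:39551001-39551200) went from 1.22% of 82 calls to 61.2% of 49 calls. In Olfr94 a pair of adjacent bins downstream (chr17:37194801-37195000 and chr17:37195001-37195200) went from 5.71% to 72.2% and from 15.6% to 76.3%.

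The 5 hypo-CG-DMR bins lay in 5 genes of 4 clusters. The bin in Olfr948 went from 70% of 40 calls to 25% of 20 calls. The bin centred before Olfr918 went from 84.6% of 39 calls to 40% of 30 calls, and that in Olfr1026 from 66.7% of 42 calls to 22.2% of 27 calls. The others lay in an intron of Olfr745 and in a coding exon of Olfr2. With 20 to 42 calls each they had wide intervals, for example 11.2% to 46.9% for Olfr948 in TCKO.

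Strings bound by factors of bone and growth signalling were counted on both strands of the bins. TGANTCA, the AP-1 string, was held by 5 of the 48 hyper-CG-DMR bins (10.4%) and by 550 of the 9692 testable bins of the family (5.67%). AACCACA, the string of RUNX factors, was held by 5 (10.4%) and by 471 (4.86%), and CATTCCA, the string of TEAD factors, by 1 (2.08%) and by 288 (2.97%). These counts are small and are a description of letters only.

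Sequence with little methylation in both libraries was scarce. Of the testable bins 107 (1.10%) lay under 20% in WT, against 2.83% of all testable bins, and 45 (0.464%) were under 20% in both libraries, against 1.03% of all testable bins. Olfr750 on chromosome 14 held 5 of these downstream of the gene, the densest with 20 CG cytosines (chr14:51064601-51064800) and 0% of 122 calls in WT and 0% of 148 in TCKO. In Olfr78 an intron bin (chr7:102757001-102757200) had 12.2% of 74 calls in WT and 9.23% of 65 in TCKO. A bin with its midpoint 129 bp before Olfr1302 had 0% in both (48 and 42 calls).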

How the data were processed

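Per the labels and the methods, the authors mapped the WGBS reads with BSMAP 2.74 on GRCm38 and used unique alignments. Their deposited values are, by CG cytosine and strand, a count of C calls and a count of C plus T calls, not normalized. Removal of duplicate reads was not given in the sources used here. Libraries were grouped by their genotype labels, 1 per genotype. Levels were methylated over all calls, pooled over the union of windows, with 95% Wilson intervals, Newcombe intervals for differences, and normal-approximation intervals for differences of differences. The 2-sided Fisher exact test was adjusted by Benjamini-Hochberg over all autosomal genes, all clusters or all testable bins, and was tested on simulated data. Genes were named as the 5 largest gains and losses, the 5 lowest and 3 highest in WT (all with at least 100 calls in each library) and 10 known receptors; other genes named were chosen after their values were seen. The members and lists were chosen with earlier results of these data known. No protein table was used, so class I was taken from position. Expression and chromatin data were not analysed here. Computations used Python 3.11.15, numpy 2.4.6, pandas 2.3.3, scipy 1.17.1, numba 0.67.0 and matplotlib 3.10.9.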

Additional observations from a re-analysis of the deposited data

How the results depend on the processing

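Most results kept their direction and side of the threshold under the alternatives run, and none reversed. The pooled difference of the family moved to -0.0875 points (Fisher exact p = 0.244) without cytosines of more than 30 calls, to -0.067 points (exact p = 0.371) without chromosome 7, and to -0.655 points as a mean over members. The gap to other genes moved to -6.33 points as a mean over genes and to -4.25 points when weighted over CG density. Members called higher numbered 29 on the plus strand, 38 on the minus strand and 119 with no minimum difference, and members called lower 26, 34 and 122. With no minimum difference 241 of 1398 members passed in either direction, where 30444 of 49751 other autosomal genes did. Calls over all genes were not counted on single strands. Called lower were 0 with 5 kb on each side and 8 among protein-coding genes. The plus strand alone had 13 clusters called higher, and there the class I cluster differed from the others by -0.622 points, with an interval without 0. Hyper-CG-DMR bins numbered 11 with a mean of at least 10 calls and 119 above 20 points. Hypo-CG-DMR bins numbered 9 with a mean of at least 1 call, 0 with at least 10, 32 above 20 points and 8 by unadjusted p. The causes of these changes were not tested. By construction a strand holds fewer calls than both, and a lower threshold admits more. No paired analysis was possible because each genotype had 1 library, which also leaves nothing to leave out. Class from protein identity was not run, since no protein table was used. The strands correlated weakly over single genes (r = 0.283) and closely over clusters of at least 5 members (r = 0.911), and the part of depth in this was not tested.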
